A study of Homo sapiens with 6 samples.

Results

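The genes described here are 37 members of the Wnt signalling pathway, chosen by symbol from the 19923 genes of a count table of BT549 cells. They cover 9 roles: 5 ligands, 2 genes that mature or carry ligands, 8 frizzled receptors, 2 LRP co-receptors, 3 secreted antagonists, 2 ligases that remove receptors, 5 genes of dishevelled and its inhibitors, 6 of beta-catenin and its destruction complex, and 4 TCF/LEF transcription factors. RNA was measured in 3 libraries of BT549 cells given a treatment labelled ENL and in 3 libraries of control BT549 cells. BT549 is an established human breast cancer cell line. What ENL stands for is not stated in the labels, which also leave out dose, duration and vehicle. Nor do they say if each library was made from its own culture, and the p-values below reflect only how much these libraries vary, which may be technical.

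In canonical Wnt signalling, a secreted Wnt protein binds a frizzled receptor and an LRP co-receptor, dishevelled is recruited to the membrane, and the complex of APC, axin and glycogen synthase kinase that marks beta-catenin for degradation stops working. Beta-catenin then enters the nucleus and acts with TCF/LEF factors on target genes, while DKK and SFRP proteins outside the cell hold the signal back. Other branches use frizzled and dishevelled without beta-catenin to control cell shape and movement, and WNT5A and WNT5B are the ligands best known for them.

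The 6 libraries held between 74457932 and 85310759 estimated counts each, and 14086 genes passed the filter on low counts. The first principal component of the log2 CPM values carried 55.2% of the variance and separated the groups. On it the ENL libraries lay between 43.4 and 59.5 and the control libraries between -53.5 and -53.2. ENL libraries 1 and 2 lay together on the second principal component (-22.0 and -26.3) and ENL library 3 lay apart from them (55.8). The second component carried 14.3% of the variance. Marker genes of epithelial, mesenchymal, immune and endothelial cells were examined. Of 9 luminal and epithelial markers, PGR was at 0 in all libraries, EPCAM was at most 0.249 CPM (the count of a gene scaled by the size of its library) and CDH1 at most 0.358 CPM, while the mesenchymal marker VIM was between 5372 and 6289 CPM in ENL libraries and between 2481 and 3267 CPM in control libraries. ESR1 was at most 0.966 CPM, KRT19 at most 1.01 CPM and ERBB3 at most 1.42 CPM in any library. The remaining epithelial markers were more abundant. GATA3 was between 22.6 and 38.6 CPM with ENL and between 25.4 and 32.7 CPM in control. KRT18 was between 21.7 and 27.4 CPM with ENL and between 23.1 and 31.3 CPM in control. KRT8 was higher with ENL, at 38.0 ± 4.20 CPM against 15.8 ± 2.42 CPM in control (log2 fold change 1.27 ± 0.15, adjusted p = 0.000991). Summed over the list, the 9 luminal and epithelial markers had 87.2 to 109 CPM in ENL libraries and 69.9 to 83.5 CPM in control libraries, and the 6 mesenchymal markers had 6176 to 7069 CPM in ENL libraries and 3333 to 4067 CPM in control libraries. VIM made up most of the mesenchymal sum, in which 4 genes were higher and SPARC was lower (92.7 ± 3.05 CPM with ENL and 331 ± 5.20 CPM in control, -1.83 ± 0.07, adjusted p = 1.93e-05). Of 5 immune markers, CD14 was lower with ENL (1.71 ± 0.565 CPM against 9.68 ± 1.31 CPM in control, adjusted p = 0.000666). Of 4 endothelial markers, CDH5 and KDR were at 0 in all libraries and PECAM1 was at most 0.383 CPM. VWF, the only 1 that could be tested, was present and not called (adjusted p = 0.843). It was between 5.56 and 6.56 CPM with ENL and between 5.45 and 8.54 CPM in control. The part of these markers in the results below was not tested.

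Of the 37 Wnt genes, 35 could be tested, and RNF43 and LEF1 had too few counts. With ENL, 8 genes rose and 7 fell at an adjusted p under 0.05 (edgeR's quasi-likelihood test, Benjamini-Hochberg adjustment over all genes tested), and 20 did not pass. The 15 called genes are 42.9% of those tested, beside 38.4% of all genes in the same test (20.0% higher and 18.4% lower). The median log2 fold change was -0.01 over the Wnt genes and -0.02 over all genes. The share of Wnt genes called was thus near the background. Of the 5 genes of dishevelled and its inhibitors 4 rose, and of the 3 secreted antagonists 2 fell. Neither TCF/LEF factors nor receptor-removing ligases had a called gene.

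The libraries of the 2 groups did not overlap for 24 of the 35 genes, or 68.6%, beside 54.0% of all genes tested. Of the 15 called genes, 9 kept direction and call in all of the 16 other settings in which they could be tested: WNT9A, WLS, FZD2, DKK1, SFRP1, DVL1, DVL2, NKD2 and CTNNB1. The other calls, of WNT3, FZD3, FZD5, LRP6, DVL3 and AXIN1, were lost in at least 1 setting. Of the 20 genes that did not pass, 10 passed in at least 1 setting: WNT5A, PORCN, FZD1, FZD6, FZD7, ZNRF3, APC, GSK3A, GSK3B and TCF7L2. FZD1 (-0.39, adjusted p = 0.0493), FZD7 (-0.49, adjusted p = 0.0181) and ZNRF3 (-0.41, adjusted p = 0.0451) did so with scaling to library totals alone. In bulk RNA, fewer cells that make a transcript and less of it per cell cannot be told apart.

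**Figure D1:**
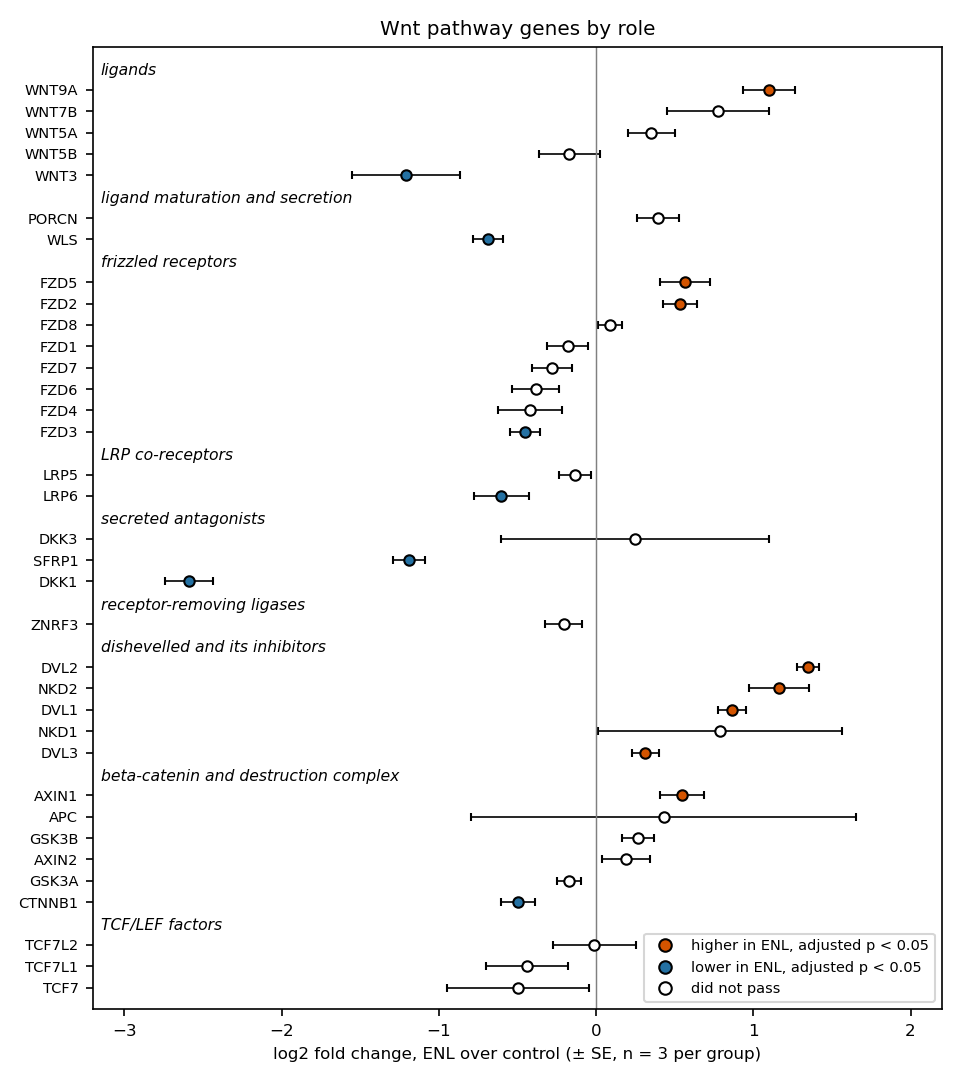
Log2 fold change of ENL over control for the 35 tested Wnt genes, grouped by role and sorted within each role. Points are fitted values with their standard error (n = 3 libraries per group), filled where the adjusted p was under 0.05. DKK1 lies farthest to the left at -2.59 and DVL2 farthest to the right at 1.35, and the widest error belongs to APC.

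Among the secreted antagonists, DKK1 had the largest change of all 35 tested Wnt genes. DKK1 binds LRP5 and LRP6 and keeps Wnt ligands from using them. Its gene lies at chr10:52314296-52318042 on the + strand (GRCh38, GENCODE 29). The 3 ENL libraries had 11.8, 12.8 and 9.23 CPM of DKK1, and the 3 control libraries had 75.8, 63.8 and 64.6 CPM. Every ENL library was well below every control library. The level averaged 11.3 ± 1.86 CPM with ENL and 68.1 ± 6.74 CPM in control (SD, n = 3 each), a log2 fold change of -2.59 ± 0.15 (SE) with an adjusted p of 6.89e-05. DKK1 is itself a reported target of beta-catenin. The 250 bases before its RefSeq start (GRCh38.p14, chr10:52314031-52314280, + strand) are shown because they carry letters that TCF/LEF factors recognise, with CTTTGAA beginning 95 bases and CTTTGTT 76 bases before the start, both in capitals.
DKK1 promoter: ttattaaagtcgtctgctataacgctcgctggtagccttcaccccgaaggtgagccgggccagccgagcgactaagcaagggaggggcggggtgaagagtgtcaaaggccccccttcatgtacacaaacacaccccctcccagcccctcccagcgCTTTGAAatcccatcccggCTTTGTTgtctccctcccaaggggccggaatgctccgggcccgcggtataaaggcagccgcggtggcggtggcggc
The search took CTTTGAA, its variant with the letters CTTTGAT, another with the letters CTTTGTA and another with the letters CTTTGTT, on both strands, and at least 1 match stood in 7.44% of the 11028 tested genes with a promoter in the table. Of the 26 Wnt genes with a promoter there, DKK1 was the only match. A match of letters describes the sequence and does not show that a factor binds.

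SFRP1, which binds Wnt ligands directly, is the other antagonist that fell. It had 55.5, 54.4 and 65.7 CPM in the ENL libraries, against 135, 125 and 140.4 CPM in the control libraries. The groups did not overlap, and the means were 58.5 ± 6.25 CPM with ENL and 133 ± 7.56 CPM in control (SD, n = 3 each). The log2 fold change of SFRP1 was -1.19 ± 0.10 with an adjusted p of 0.000276. DKK3, a member of the DKK family that does not share DKK1's action on LRP5 and LRP6, had 11.1, 1.85 and 11.4 CPM with ENL and 3.53, 13.7 and 3.35 CPM in control. Its libraries disagreed within each group, with ENL library 2 low and control library 2 high. The difference in DKK3 did not pass (log2 fold change 0.25 ± 0.85, adjusted p = 0.839), and the sign turned without ENL library 1 (-0.04), ENL library 3 (-0.07), control library 1 (-0.06) or control library 3 (-0.08).

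A further secreted antagonist outside the 37, SFRP2, moved the other way. It had 107, 108 and 96.2 CPM in the ENL libraries, against 19.6, 20.8 and 19.3 CPM in the control libraries. Its log2 fold change was 2.38 ± 0.09 with an adjusted p of 1.93e-05. SFRP2 was added to the following sum after its values were seen. Per kilobase of each gene's longest transcript, DKK1, DKK3 and SFRP1 together came to 22.4 ± 2.16 CPM per kb with ENL and 70.3 ± 2.90 CPM per kb in control (SD, n = 3 each). With SFRP2 the sum was 73.5 ± 2.21 CPM per kb with ENL and 80.1 ± 2.81 CPM per kb in control. The ratio of ENL to control was 0.319 without SFRP2 and 0.917 with it, and in both cases every ENL library had a lower sum than every control library. SFRP2 made up 69.5 ± 3.23% of that sum with ENL and 12.2 ± 0.703% in control, while DKK1 made up 8.57 ± 1.29% with ENL and 47.4 ± 3.03% in control.

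**Figure D2:**
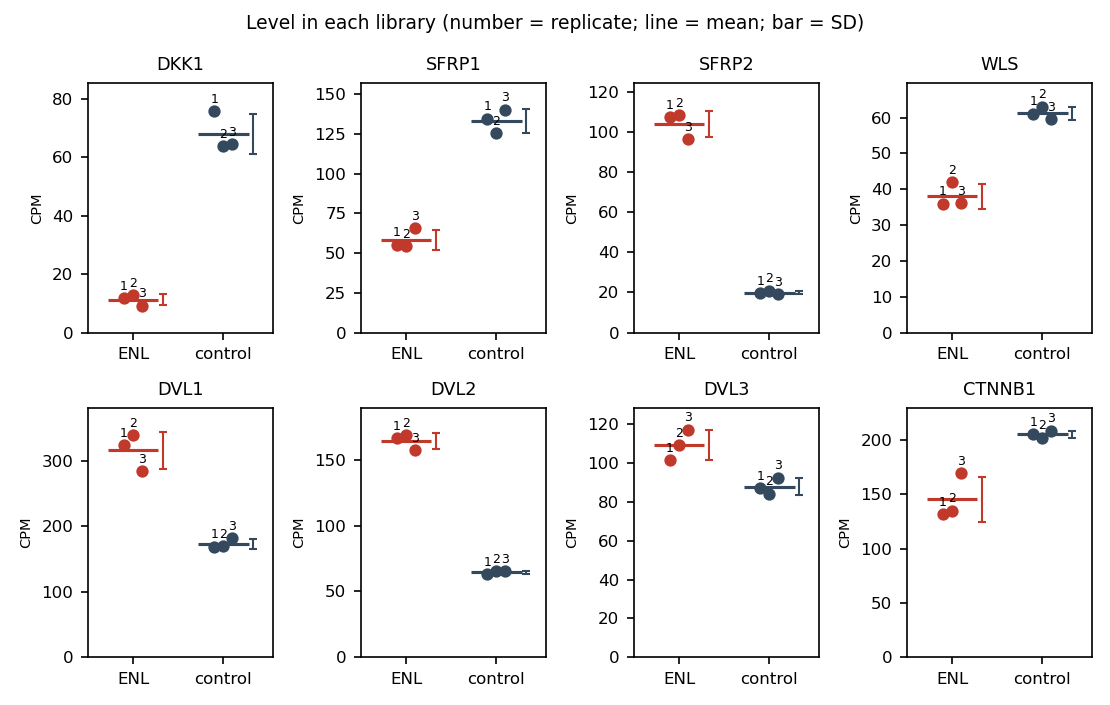
Level in each library, in CPM on linear axes from 0, of 7 Wnt genes and of SFRP2. Dots are libraries with their numbers, ENL left and control right, horizontal lines are means and vertical bars the SD (n = 3 each). ENL libraries lie below all control libraries for DKK1, SFRP1, WLS and CTNNB1 and above them for SFRP2, DVL1, DVL2 and DVL3.

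The dishevelled genes, which pass the signal from the receptors into the cell, all rose. DVL2 had the largest increase of the 35 tested Wnt genes. The ENL libraries had 166, 168 and 157 CPM of DVL2, and the control libraries had 63.0, 65.2 and 65.4 CPM. The spread within each group was small beside the gap, at 164 ± 5.89 CPM with ENL and 64.5 ± 1.36 CPM in control (SD, n = 3 each). The log2 fold change of DVL2 was 1.35 ± 0.07 with an adjusted p of 4.43e-05. DVL1 had 324, 338 and 284 CPM with ENL and 169, 169 and 182 CPM in control, again with no overlap. Its means were 316 ± 27.9 CPM with ENL and 173 ± 7.30 CPM in control (SD, n = 3 each), a log2 fold change of 0.87 ± 0.09 with an adjusted p of 0.000595. A pseudogene of DVL1, DVL1P1, is listed among human genes, and the labels do not record how reads of such a copy were counted.

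The promoters of these genes, 250 bases before each RefSeq start (GRCh38.p14), are shown because DVL1 and DVL2 rose in all 16 other settings. That of DVL1 is at chr1:1349419-1349668 and that of DVL2 at chr17:7234518-7234767, both read from the - strand, and the genes themselves lie at chr1:1335276-1349350 and chr17:7225341-7234545 (GENCODE 29). Capitals mark TGACGTCA in DVL1 and CACGTG in DVL2.
DVL1 promoter: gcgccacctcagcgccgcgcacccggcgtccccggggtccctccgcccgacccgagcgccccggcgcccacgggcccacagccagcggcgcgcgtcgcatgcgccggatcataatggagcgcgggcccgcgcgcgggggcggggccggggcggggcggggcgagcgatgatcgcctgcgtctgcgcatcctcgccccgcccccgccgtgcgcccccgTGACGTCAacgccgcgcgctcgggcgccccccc
DVL2 promoter: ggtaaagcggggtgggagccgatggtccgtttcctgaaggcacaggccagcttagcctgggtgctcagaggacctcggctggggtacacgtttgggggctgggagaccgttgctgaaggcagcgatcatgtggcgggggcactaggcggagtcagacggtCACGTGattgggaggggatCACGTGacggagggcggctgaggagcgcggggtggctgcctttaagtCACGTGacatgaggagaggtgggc
DVL2 holds CACGTG, the E-box, 3 times, beginning 90, 71 and 24 bases before the RefSeq start. The copy nearest that start lies inside the GENCODE 29 span of DVL2, which reaches to 7234545. Among the 11028 tested genes with a promoter in the table, 8.76% held CACGTG at least once and 18 genes, or 0.163%, held it 3 times or more. DVL1 holds TGACGTCA, the cAMP response element, once, beginning 33 bases before the start, as 2.84% of those promoters do. Both motifs read the same on the other strand, and neither was found in another of the 26 Wnt promoters. They were picked for the search after the sequences had been seen, so the matches are a description only. G and C make up 83.2% of the DVL1 window, 64.4% of the DVL2 window and 62.8% of the DKK1 window above.

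DVL3 rose less than its relatives. It had 101, 109 and 117 CPM with ENL and 86.8, 84.1 and 92.4 CPM in control. Its log2 fold change was 0.31 ± 0.09 with an adjusted p of 0.0255. The call was lost without ENL library 2 or any of the 3 control libraries (adjusted p 0.0518 to 0.0970), and with scaling to library totals alone (0.11, adjusted p = 0.418) or to upper quartiles (0.23, adjusted p = 0.0689). Per kilobase, the 3 dishevelled genes summed to 172 ± 9.54 CPM per kb with ENL and 91.3 ± 3.28 CPM per kb in control (SD, n = 3 each). DVL2 made up 31.6 ± 0.660% of that sum with ENL and 23.4 ± 0.651% in control, and DVL3 made up 11.9 ± 1.43% with ENL and 18.0 ± 0.362% in control.

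NKD2, an inhibitor that binds dishevelled, rose as well. It had 8.70, 13.3 and 11.9 CPM with ENL and 4.45, 5.29 and 5.42 CPM in control, with no overlap. The log2 fold change of NKD2 was 1.16 ± 0.19 with an adjusted p of 0.00371, and the gene lies at chr5:1008829-1038943. Its relative NKD1, a reported target of beta-catenin, stayed between 0.396 and 0.771 CPM with ENL and between 0.0588 and 0.592 CPM in control, and did not pass (0.79 ± 0.77, adjusted p = 0.456). An increase thus appeared in the 3 carriers of the signal and in 1 of the inhibitors that act on them.

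**Figure D3:**
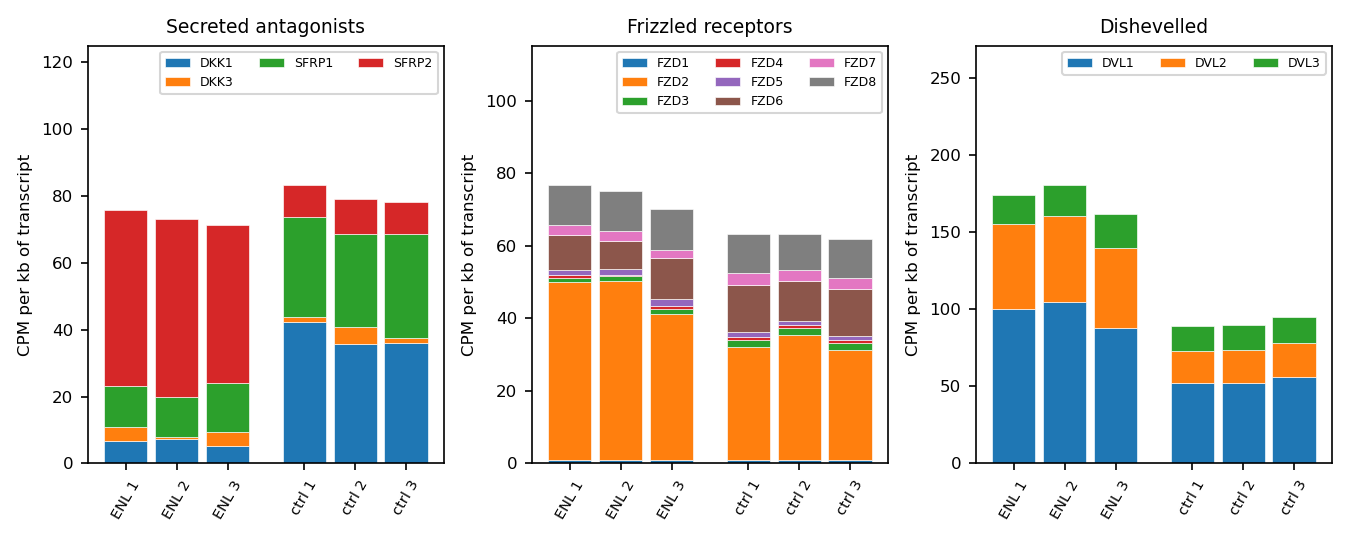
Level per kilobase of the longest transcript (CPM per kb) of each gene in 3 families, stacked for every library, with ENL libraries left and control libraries (ctrl) right. SFRP2 makes up 69.5% of the antagonist stack with ENL and 12.2% in control, FZD2 is the largest segment of the frizzled stack in all 6 libraries, and the dishevelled stack reaches 172 CPM per kb with ENL and 91.3 CPM per kb in control on average.

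The 8 frizzled receptors, which bind Wnt ligands at the cell surface, moved in both directions: 2 rose, 1 fell and 5 did not pass. FZD2 at chr17:44557459-44559570 had 103, 104 and 85.3 CPM with ENL and 65.7, 72.9 and 64.0 CPM in control. Each ENL library was above each control library, and the log2 fold change was 0.53 ± 0.11 with an adjusted p of 0.00809. FZD2 was also the frizzled gene with the highest level per kilobase, with 62.3 ± 4.27% of the frizzled sum in ENL libraries and 50.9 ± 3.11% in control libraries. The whole sum came to 74.0 ± 3.40 CPM per kb with ENL and 62.8 ± 0.733 CPM per kb in control (SD, n = 3 each). Of the other 7 genes, FZD8 made up 15.2 ± 0.948% with ENL and 16.8 ± 0.722% in control, and FZD6 made up 12.8 ± 2.83% with ENL and 19.7 ± 1.83% in control.

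FZD5 had 10.3, 11.2 and 13.5 CPM with ENL and 8.87, 6.95 and 7.79 CPM in control. It rose by a log2 fold change of 0.57 ± 0.16 with an adjusted p of 0.0285, and the call was lost without ENL library 2 or 3 or control library 2 or 3 (adjusted p 0.0504 to 0.0946) and with scaling to library totals alone (0.142). FZD3, a receptor known for its part in axon guidance and cell polarity, had 18.5, 19.3 and 19.5 CPM with ENL and 28.1, 25.6 and 24.7 CPM in control. All ENL libraries were lower, and FZD3 fell with a log2 fold change of -0.45 ± 0.10 and an adjusted p of 0.0106. That call was lost once log2 values were corrected for GC content and transcript length, a correction chosen after the data were seen (-0.33, adjusted p = 0.0943).

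FZD6 had 36.1, 29.2 and 42.2 CPM with ENL and 49.2, 42.2 and 49.1 CPM in control, so that the highest ENL library met the lowest control library. Its log2 fold change of -0.38 ± 0.15 did not pass (adjusted p = 0.0811). Without ENL library 3 the value was -0.50 with an adjusted p of 0.0233. FZD7 had 10.9, 9.82 and 8.93 CPM with ENL and 12.6, 11.3 and 12.1 CPM in control, a log2 fold change of -0.28 ± 0.13 that did not pass (adjusted p = 0.120). FZD8 was nearly level, with 44.5, 44.9 and 45.9 CPM in ENL libraries and 42.9, 40.9 and 43.6 CPM in control libraries (log2 fold change 0.09 ± 0.08, adjusted p = 0.407, and -0.12 with library totals alone). FZD1 was between 5.55 and 6.33 CPM with ENL and between 6.37 and 6.91 CPM in control (-0.18, adjusted p = 0.309), and FZD4 was between 3.42 and 5.60 CPM with ENL and between 5.84 and 6.32 CPM in control (-0.42, adjusted p = 0.144). The ENL libraries of each lay below its control libraries, and neither gene passed. FZD4 shares 1399 exon bases with PRSS23 on the opposite strand, and without strand the reads of such a pair cannot be told apart.

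Of the LRP co-receptors, LRP6 fell and LRP5 did not pass. LRP6 at chr12:12116025-12267012 had 15.8, 13.8 and 21.1 CPM with ENL and 28.1, 23.1 and 25.7 CPM in control. The groups did not overlap, with a log2 fold change of -0.60 ± 0.18 and an adjusted p of 0.0325. Leaving out any library other than ENL library 3 took the call away (adjusted p 0.0526 to 0.106). LRP5 had 32.6, 33.8 and 38.5 CPM with ENL and 35.8, 40.0 and 39.4 CPM in control, and its groups overlapped (-0.14 ± 0.10, adjusted p = 0.328). Per kilobase LRP5 was the larger share of the pair, at 80.2 ± 2.33% with ENL and 74.4 ± 2.95% in control. With the median transcript length in place of the longest, LRP5 held 66.2% with ENL and 58.4% in control.

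The ligases RNF43 and ZNRF3 remove frizzled receptors from the membrane, and their own genes are reported beta-catenin targets. ZNRF3 had 13.3, 13.2 and 15.5 CPM with ENL and 16.5, 16.5 and 15.4 CPM in control, and did not pass (-0.21 ± 0.12, adjusted p = 0.204). RNF43 had 0 counts in each ENL library and 0, 2 and 8 counts in the control libraries. Both groups lay under the limit of 3 fragments (12 counts, or 0.137 to 0.176 CPM per library), so no fold is given. RNF43 also shares 4326 exon bases with AC004687.2 on its own strand, and how reads were divided between them is not known here.

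Of the 5 Wnt ligands, 1 rose and 1 fell. Together they came to 13.6 ± 2.50 CPM per kb with ENL and 13.2 ± 0.838 CPM per kb in control (SD, n = 3 each), below the frizzled sum in both groups. WNT9A at chr1:227918656-227947898 had 4.41, 4.48 and 4.90 CPM with ENL and 2.26, 2.22 and 1.95 CPM in control. Its groups lay far apart for their spread, with a log2 fold change of 1.10 ± 0.16 and an adjusted p of 0.00255. WNT3, a ligand of the beta-catenin branch, had 0.849, 0.484 and 0.530 CPM with ENL and 1.73, 1.42 and 1.16 CPM in control. It fell with a log2 fold change of -1.21 ± 0.35 and an adjusted p of 0.0307, and the call was lost when any library other than ENL library 1 was left out (adjusted p 0.0522 to 0.106). WNT7B was between 1.10 and 1.31 CPM with ENL and between 0.494 and 0.882 CPM in control. Although its groups did not overlap, WNT7B did not pass (0.77 ± 0.33, adjusted p = 0.103).

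WNT5A had 26.5, 20.6 and 29.4 CPM with ENL and 19.9, 18.8 and 21.3 CPM in control. ENL library 2 fell within the control range, and the log2 fold change of 0.35 ± 0.15 did not pass (adjusted p = 0.103). Without that library the value was 0.49 with an adjusted p of 0.0227. WNT5B had 23.7, 14.8 and 15.7 CPM with ENL and 21.7, 18.7 and 20.6 CPM in control, with overlapping groups (-0.17 ± 0.19, adjusted p = 0.520). Per kilobase WNT5B and WNT5A made up most of the ligand sum: WNT5B held 57.1 ± 6.05% with ENL and 66.8 ± 0.792% in control, and WNT5A held 30.6 ± 4.77% with ENL and 24.5 ± 1.26% in control.

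The genes that prepare ligands for release differed in direction. WLS carries lipid-bearing Wnt proteins to the cell surface, and its gene lies at chr1:68098473-68233120. It had 36.0, 42.1 and 36.2 CPM with ENL and 61.1, 63.1 and 59.5 CPM in control. Every ENL library was lower, with a log2 fold change of -0.69 ± 0.09 and an adjusted p of 0.00187. PORCN, the acyltransferase that attaches the lipid, had 30.1, 29.9 and 24.5 CPM with ENL and 19.7, 24.4 and 20.1 CPM in control. The lowest ENL library barely cleared the highest control library, and PORCN did not pass (0.40 ± 0.13, adjusted p = 0.0529). It passed without ENL library 3 (0.50, adjusted p = 0.0223) and without control library 2 (0.50, adjusted p = 0.0450).

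The transcript of CTNNB1, the gene of beta-catenin, fell, and protein was not measured. CTNNB1 at chr3:41194741-41260096 had 132, 135 and 169 CPM with ENL and 205, 202 and 208 CPM in control. The control libraries lay close together, and ENL library 3 lay nearest to them. The means were 145 ± 20.8 CPM with ENL and 205 ± 3.19 CPM in control (SD, n = 3 each), with a log2 fold change of -0.50 ± 0.11 and an adjusted p of 0.0115. AXIN1, the scaffold of the destruction complex, at chr16:287440-352673, had 57.6, 58.7 and 45.3 CPM with ENL and 32.9, 35.6 and 42.1 CPM in control. It rose with a log2 fold change of 0.55 ± 0.14 and an adjusted p of 0.0218. The call of AXIN1 was lost without ENL library 1 or 2 or control library 1 or 2 (adjusted p 0.0627 to 0.0757) and with scaling to library totals alone (0.33, adjusted p = 0.0805).

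AXIN2, the scaffold that is also a widely used reporter of beta-catenin activity, was between 4.01 and 4.53 CPM with ENL and between 3.43 and 3.93 CPM in control. Its small difference did not pass (0.19 ± 0.15, adjusted p = 0.370, and -0.02 with library totals alone). The glycogen synthase kinases, which phosphorylate beta-catenin, did not pass either. GSK3A had 49.1, 51.4 and 50.6 CPM with ENL and 54.3, 58.0 and 58.1 CPM in control (-0.17 ± 0.08, adjusted p = 0.122). GSK3B had 72.4, 65.2 and 78.5 CPM with ENL and 63.9, 56.0 and 59.5 CPM in control (0.27 ± 0.10, adjusted p = 0.0733). The GSK3 genes thus had values on opposite sides of 0, each with groups that did not overlap. GSK3A passed with upper-quartile scaling (-0.26, adjusted p = 0.0381) and with library totals alone (-0.38, adjusted p = 0.0109). GSK3B passed without ENL library 2 (0.34, adjusted p = 0.0460) and with the length and GC correction (0.36, adjusted p = 0.00503).

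APC, the scaffold lost in many colorectal cancers, gave the widest spread of the list. It had 14.3, 22.9 and 28.9 CPM with ENL and 2.47, 1.90 and 44.8 CPM in control. Control library 3 was the highest of all 6 libraries while the other controls were the lowest. No direction can be given for APC (0.43 ± 1.22, adjusted p = 0.808): without control library 3 the log2 fold change was 3.34 with an adjusted p of 0.00266, and without control library 1 or 2 it was -0.08 or -0.10. APC and DKK3 were the Wnt genes, of 28 whose mean level reached 5 CPM, in which libraries of a group differed by 4 times or more. Such a spread occurred in 263 of 10503 tested genes of that level, or 2.50%.

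**Figure D4:**
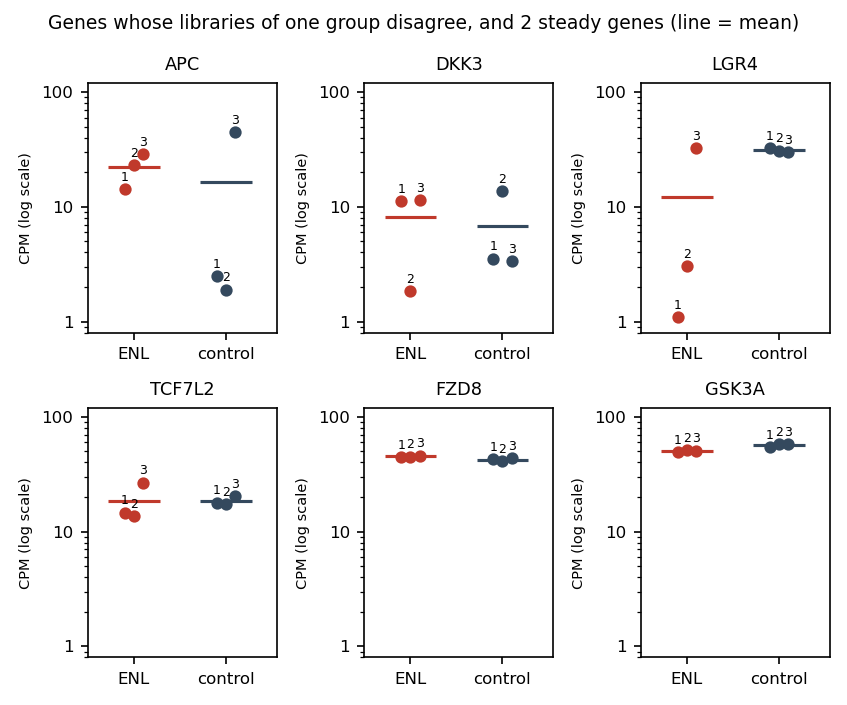
Level in each library (CPM, log axis) of APC, DKK3 and TCF7L2, of LGR4, and of FZD8 and GSK3A for comparison. Dots are libraries with their numbers, ENL left and control right, and lines are means. Control library 3 stands apart for APC, ENL library 2 and control library 2 for DKK3, and ENL library 3 for TCF7L2 and LGR4, whereas the libraries of FZD8 and GSK3A lie close together.

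None of the TCF/LEF factors, the DNA-binding partners of beta-catenin, passed. TCF7L2 had 14.6, 13.6 and 26.6 CPM with ENL and 17.8, 17.3 and 20.3 CPM in control. ENL libraries 1 and 2 were below and ENL library 3 above all controls, so the fitted value was near 0 (-0.01 ± 0.26, adjusted p = 0.974). Without ENL library 3 it was -0.37 with an adjusted p of 0.0486, and without ENL library 1 or 2 or control library 3 it was 0.13, 0.16 or 0.06. TCF7 was between 1.22 and 2.91 CPM with ENL and between 1.88 and 3.84 CPM in control (-0.50 ± 0.45, adjusted p = 0.420). TCF7L1 was between 1.70 and 2.70 CPM with ENL and between 2.25 and 3.20 CPM in control (-0.44 ± 0.26, adjusted p = 0.224). LEF1 was at 9, 4 and 4 counts with ENL and at 0, 5 and 0 counts in control, under the limit of 12 counts in all libraries. Per kilobase TCF7L2 was the main member, with 76.2 ± 9.52% of the TCF/LEF sum with ENL and 72.5 ± 3.78% in control.

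Transcript composition moved with direction among the Wnt genes. The longest transcript of the 8 genes that rose had a median of 61.8% G and C (49.9 to 67.5%), that of the 7 genes that fell 43.5% (34.9 to 51.1%), and that of the 20 genes that did not pass 52.9%. Over all genes tested, the medians were 51.8% for those that rose and 49.0% for those that fell. After a correction for length and GC content, chosen after the data were seen, 11 Wnt genes were higher and 7 lower, beside 22.5% and 22.0% of all genes tested with a known length. WNT5A, PORCN, FZD6 and GSK3B passed with that correction and FZD3 no longer did. How far composition shaped the counts was not tested.

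**Figure D5:**
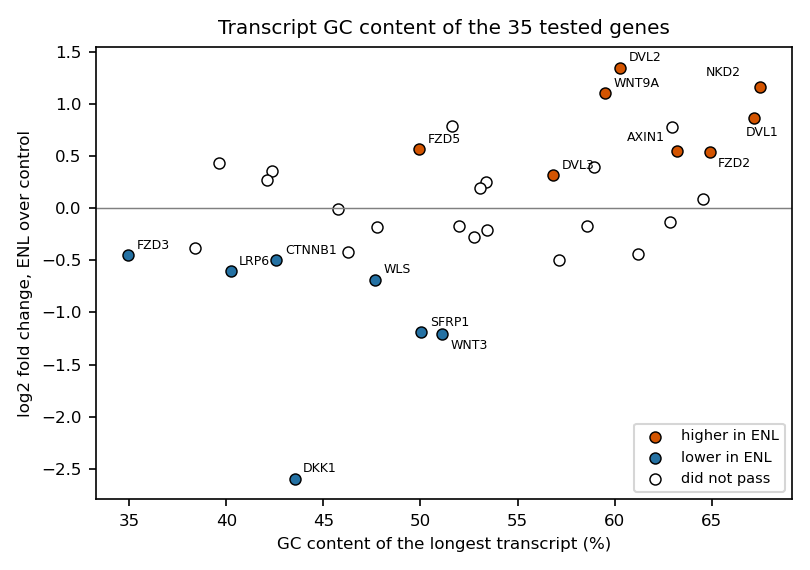
Log2 fold change of ENL over control against the GC content (%) of the longest transcript for the 35 tested Wnt genes, with called genes named and coloured by direction. Genes that rose lie between 49.9% and 67.5% G and C, and genes that fell lie between 34.9% and 51.1%.

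A wider list of 118 Wnt genes outside the 37 was set beside them. Of its 86 tested genes, 18 were higher and 14 lower, or 37.2%, with a median log2 fold change of -0.14. Over all genes tested 38.4% were called, 20.0% higher and 18.4% lower, with a median of -0.02, so the wider list was near the background. The count of lower genes dropped to 8 without ENL library 1, 9 without control library 1 and 8 without control library 2. Among 19 other ligands and R-spondins, 5 could be tested and 2 fell, RSPO2 and the scarce WNT16 (at most 0.732 CPM). RSPO2, an R-spondin that strengthens Wnt signals by keeping ZNRF3 and RNF43 away from the receptors, had 17.7, 16.0 and 19.6 CPM with ENL and 33.9, 32.3 and 32.4 CPM in control (-0.89 ± 0.11, adjusted p = 0.00109). Of 13 other receptors and co-receptors, 8 were tested, 1 rose (PTK7, 0.50 ± 0.14) and 2 fell (KREMEN2, the DKK1 co-receptor, -0.68 ± 0.18, and FZD9, -0.81 ± 0.19). FZD9 and WNT16 are below the level set for naming and were named after their values were seen. FZD9 lost its call without ENL library 1 (adjusted p = 0.0507) or control library 2 (0.0635), and WNT16 without any of the 6 libraries (0.0515 to 0.119). The call of PTK7 was lost without any library other than control library 3 (adjusted p 0.0554 to 0.105), with library totals alone (0.29, adjusted p = 0.171) and with upper quartiles (0.0609), and that of KREMEN2 without ENL library 1 or 3 or control library 1 or 2 (0.0566 to 0.0782).

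Of 12 other antagonists, 4 were tested, and beside SFRP2 the call was TPBG, a membrane protein that turns LRP6 away from beta-catenin signalling. TPBG had 59.4, 57.1 and 64.0 CPM with ENL and 121, 118 and 113 CPM in control (-0.96 ± 0.08, adjusted p = 0.000247). In the cytoplasm, 6 of 18 tested genes rose and 3 fell, or 50%, beside 38.4% of all genes tested. TNKS2, a tankyrase that marks axin for degradation, averaged 124 ± 29.1 CPM with ENL and 70.4 ± 2.34 CPM in control (0.81 ± 0.16, adjusted p = 0.00795). AMER1, a membrane anchor of the destruction complex, averaged 5.76 ± 1.19 CPM with ENL and 12.1 ± 0.271 CPM in control (-1.07 ± 0.17, adjusted p = 0.00322). CSNK1A1, the kinase that primes beta-catenin, rose by 0.47 ± 0.10 on the log2 scale (adjusted p = 0.0100, and 0.0843 with library totals alone). TNKS, the other tankyrase, rose as well (0.43 ± 0.11, adjusted p = 0.0233), and the call was lost without any of the 3 control libraries (0.0562 to 0.0818) and with library totals alone (0.23, adjusted p = 0.223). The calls of CTNNBIP1, an inhibitor that binds beta-catenin (0.31 ± 0.10), and FBXW11, a ligase subunit that recognises it (-0.40 ± 0.10), also depended on single libraries. CTNNBIP1 lost its call without any library other than ENL library 3 (adjusted p 0.0865 to 0.122) and with library totals alone (0.10, adjusted p = 0.403), and FBXW11 without any library other than ENL library 2 or 3 (0.0505 to 0.0663).

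Of 16 nuclear cofactors, 2 rose and 1 fell, or 18.75%, beside 38.4% of all genes tested. TLE1, a corepressor of TCF factors, had 80.3, 72.7 and 80.2 CPM with ENL and 38.8, 43.2 and 39.9 CPM in control (0.94 ± 0.09, adjusted p = 0.000413). BCL9L, which bridges beta-catenin to PYGO proteins, averaged 130.0 ± 9.75 CPM with ENL and 91.8 ± 3.55 CPM in control (0.50 ± 0.08, adjusted p = 0.00402). CHD8, a chromatin remodeller that binds beta-catenin, averaged 51.9 ± 4.28 CPM with ENL and 87.7 ± 6.35 CPM in control (-0.76 ± 0.10, adjusted p = 0.00152). In the planar polarity and calcium branch, 4 of 21 tested genes rose and 3 fell, or 33.3%, again beside 38.4%. CAMK2D rose by 1.28 ± 0.25 on the log2 scale, DAAM1, a formin that binds dishevelled, by 1.21 ± 0.18, and PRICKLE3 by 0.64 ± 0.10. The core polarity genes VANGL1 (-1.13 ± 0.14, adjusted p = 0.00132) and CELSR2 (-1.18 ± 0.26, adjusted p = 0.0117) fell. Among these polarity and calcium genes CELSR1 (0.54 ± 0.14) lost its call without any of the 3 control libraries (adjusted p 0.0663 to 0.0771) and with library totals alone (0.34, adjusted p = 0.147), and PRKCA (-0.35 ± 0.11) without any library other than ENL library 3 (0.0613 to 0.130).

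Reported beta-catenin target genes did not share a direction. Of 26 listed, 20 were tested, and 4 rose and 3 fell, or 35%. Over all genes tested 38.4% were called, 20.0% higher and 18.4% lower, so this list was near the background. Its median log2 fold change was 0.12, and it includes 7 of the 37 Wnt genes. DKK1, described above, was among those that fell. CCND1, which encodes cyclin D1, had 60.6, 63.2 and 65.3 CPM with ENL and 147, 136 and 139 CPM in control (-1.16 ± 0.07, adjusted p = 9.06e-05). BIRC5 averaged 13.4 ± 1.16 CPM with ENL and 29.1 ± 6.74 CPM in control (-1.12 ± 0.18, adjusted p = 0.00323). BAMBI had 19.6, 18.4 and 18.7 CPM with ENL and 8.55, 8.37 and 8.15 CPM in control (1.18 ± 0.10, adjusted p = 0.000309). ID2 (0.89 ± 0.08) and SOX9 (0.82 ± 0.10) rose too, while AXIN2, ZNRF3, NKD1 and TCF7 did not pass. The fourth gene that rose, CD44 (0.42 ± 0.10, adjusted p = 0.0163), lost the call without control library 1 (adjusted p = 0.0546) and with library totals alone (0.21, adjusted p = 0.170).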

How the data were processed

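RNA of 6 BT549 libraries was compared, 3 ENL against 3 control, grouped by the deposited treatment labels. The authors deposited a table of estimated counts per gene, unnormalized as far as its values show. FastQC, STAR, StringTie, DESeq2 and the build hg38 are named per the submitters' processing notes, with no versions or roles; annotation and strandedness: not given in the sources used here. Low values cluster at multiples of 4 or 1 above (70.8 to 73.1% of values between 4 and 43), so 1 fragment was taken as about 4 counts and depth in fragments is lower than the totals.

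Counts were tested as deposited with edgeR 4.0.16 in R 4.3.3 (filterByExpr with a minimum count of 10, TMM scaling, quasi-likelihood test, Benjamini-Hochberg adjustment, threshold 0.05), with group as the only term. CPM values are TMM-scaled, ± is the SD over 3 libraries for levels and the SE for log2 fold changes. DESeq2 1.42.0 and limma 3.58.1 were alternatives. Replicates were not the same library deposited more than once: their counts differed by more than sampling noise. The design was tested on simulated data in which 200 genes per run were changed, of at least 13937 tested. That is a far smaller share than the 38.4% of genes called here, and recovery at such a share was not tested. In that setting the design recovered 12.7% of genes changed 1.5-fold, 50.7% of those changed 2-fold and 86.7% of those changed 4-fold. A gene that did not pass may thus still have changed.

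Gene loci, transcript lengths and GC content came from GENCODE 29, which matched 19553 of 19923 symbols. Promoters came from RefSeq and matched 26 of the 37 Wnt genes; 8 of these have several starts, and the start listed ahead of the others was used. The Wnt genes and the other lists were chosen with earlier results of these data known. Wnt genes that passed, or with at least 10 CPM in the higher group, are given by library. Of each wider list, up to 4 genes per direction were named by size of change among those with at least 5 CPM in the higher group; exceptions are stated beside their values. Exons overlap those of other genes for several Wnt genes: RNF43 shares 4326 bases with AC004687.2, AXIN2 1316 with AC004805.1, GSK3A 479 with AC006486.1, APC 230 with AC008575.1, DKK1 212 with PRKG1-AS1, FZD6 138 with BAALC-AS1 and WLS 111 with GNG12-AS1, and reads there are uncertain.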

Additional observations from a re-analysis of the deposited data

How the results depend on the processing

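Scaling to library totals alone moved the all-gene median of the log2 fold change to -0.23 (upper quartiles -0.11, as reported -0.02). The totals gave 1804 higher and 3996 lower genes, 5 higher and 12 lower Wnt genes, and 11 higher and 24 lower genes of the wider list, and turned the sign of FZD8 (-0.12) and AXIN2 (-0.016). A minimum of 10 CPM in 3 libraries left 24 Wnt genes, 5 of them higher. The length and GC correction gave TCF7L2 0.04. The cause was not tested.

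Leaving out 1 library at a time gave 2072 to 3156 higher and 1743 to 2877 lower genes, 6 to 8 higher and 5 to 8 lower Wnt genes, and 12 to 20 higher and 8 to 20 lower genes of the wider list. Among the genes named in the text, signs turned for DKK3 (-0.076 to 1.24), APC (-0.10 to 3.34), TCF7L2 (-0.37 to 0.16), MYC (-0.97 to 0.26) and PRICKLE2 (-1.42 to 0.020). Of 32 called genes in the wider list, 19 kept the call in all settings and 13 lost it in at least 1.

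With the replicate number as a block there were 2631 higher and 2310 lower genes, 6 higher and 8 lower Wnt genes; FZD5 (adjusted p = 0.0579) and AXIN1 (0.0621) lost their calls and FZD6 (0.0372) passed. Deviations of same-numbered libraries correlated at 0.0300, 0.0455 and 0.0797, and those of differently numbered libraries at -0.0752 to 0.0322. With deviations taken around means of 3 libraries, these values cannot decide if the numbers pair the libraries. ENL library 1 correlated best with control library 2, and ENL libraries 2 and 3 with their own numbers.

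Shares per kilobase depend on the transcript length used: with the median transcript length DVL2 held 47.5% of the dishevelled sum with ENL and 37.9% in control. With 3 libraries per group, genes near 1 CPM such as WNT3 rest on few fragments.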

Other observations

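Several genes of the wider list had libraries of a group that stood apart, and they were picked out after their values were seen. LGR4, a receptor of R-spondins, had 1.10, 3.05 and 32.5 CPM with ENL and 32.3, 30.9 and 30.1 CPM in control, so that ENL library 3 matched the controls (-1.34, adjusted p = 0.405). Without that library the log2 fold change was -3.89 with an adjusted p of 0.00441. ROCK1, a kinase downstream of RHOA, had 13.9, 14.3 and 64.5 CPM with ENL and 54.0, 48.1 and 52.4 CPM in control, with the same library apart (-0.74, adjusted p = 0.405). Without it the value was -1.85 with an adjusted p of 0.000127. MYC, a reported beta-catenin target, had 31.0, 33.8 and 37.0 CPM with ENL and 27.8, 28.9 and 105 CPM in control, where control library 3, the library that was also high for APC, stood apart. PRICKLE2, a planar polarity gene, had 6.56, 3.14 and 19.9 CPM with ENL and 4.59, 18.7 and 16.1 CPM in control. TCF4, listed here as a reported beta-catenin target, is a different gene from TCF7L2 and is not among the TCF/LEF factors above. It had 3.10, 8.32 and 12.7 CPM with ENL and 15.7, 13.3 and 12.0 CPM in control.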
